A study of Mus musculus with 8 samples.

Results

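Genes that are classically used to mark or maintain haematopoietic stem cells were followed in mouse leukaemia, 10 in all: Cd34, Gata2, Mecom, Mllt3, Hlf, Procr, Ly6a, Slamf1, Tek and Tie1. They were taken by symbol from the annotation of the array, with 1 row for each gene, and 9 of the 10 had a row among 19505 genes. Ly6a, which encodes the surface protein Sca-1, was not matched to a row and is not analysed here. GFP-positive cells with the granulocyte-macrophage progenitor (GMP) phenotype had been sorted from the marrow of transplanted mice, carrying the leukaemia fusion gene MLL-AF9 and described by the submitters as leukaemia stem cells (LSCs). There were 3 arrays from Pik3ca-/- cells (KO), which lack the p110-alpha catalytic subunit of phosphoinositide 3-kinase, and 5 arrays from WT cells, with MLL-AF9 and transplantation common to both groups. The comparison asked which transcripts differ when leukaemic GMPs lack this kinase subunit. The labels do not state how Pik3ca was deleted, the age of the mice, the sorting gate, or whether animals were pooled or kept apart. The p-values below therefore measure only how these arrays spread.

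In normal marrow, stem cells keep a small set of transcription factors and surface receptors that fade as cells commit to the myeloid lineage. GATA2, EVI1 (the product of Mecom) and HLF are transcription factors that sustain stem cells, while CD150 (Slamf1), EPCR (Procr), TIE2 (Tek) and TIE1 are receptors at their surface. CD34 is a sialomucin that is low on the most primitive stem cells of adult mice and present on GMPs. MLL fusion proteins restore self-renewal to cells that have already left the stem cell stage, and Mllt3 is the mouse gene for AF9, the partner in the fusion used here.

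All values are the log2 values that the authors deposited, and the median of an array lay between 5.26 and 5.51. They spanned 1.89 to 18.6 in 28846 rows. The log base was read from this range and is stated in no label. The median of the negative control rows lay between 4.83 and 5.45, so a row near the array median was about as bright as these controls. A row's brightness depends on its probes, so levels were compared between arrays and not between genes. In keeping with the GMP label, all 10 genes of a GMP list, among them Mpo, Elane, Kit and Fcgr3, lay above the array median on all 8 arrays. Between KO and WT, Mpo differed by -0.053 and Fcgr3 by 0.27, and 0 of the 10 passed, with a median of 0.018. Pik3ca itself was 8.73, 9.31 and 9.40 in KO arrays. It was 8.41 in WT array 3 and 9.48 to 9.58 in the other WT arrays, which lay above every KO array. The difference was -0.16 with a limma adjusted p of 0.998, and -0.39 without WT array 3 with a limma adjusted p of 0.989. Where the probes of Pik3ca lie relative to the deleted part is not known. WT array 3 stood apart, with a mean correlation across genes of 0.921 with the other arrays, against 0.968 to 0.972 for the other 7. Results are therefore also given without it. The number of arrays limited the precision, with a median standard error of 0.31 for a difference on the log2 scale.

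Of the 9 stem cell genes with a row, 5 were above the array median on at least 3 arrays and were tested (Cd34, Gata2, Mecom, Mllt3 and Tie1), and 4 were below the median on every array (Hlf, Procr, Slamf1 and Tek). Of all 19505 genes with a row, 9920 met the same limit, so 5 of 9 was near the share over all genes. Cd34, Mecom and Mllt3 were above the median on all 8 arrays. Gata2 was just inside the limit, above the median on 2 KO and 3 WT arrays, and Tie1 on 3 KO and 1 WT array. Tie1 thus entered the test through the group in which it was higher. Among the genes below the limit, Hlf lay between 4.28 and 4.95 in KO arrays and between 4.15 and 4.78 in WT arrays. It was brighter than 28.7% to 48.1% of the negative control rows. The single value closest to the limit was that of Slamf1 in WT array 1, at 5.20 against an array median of 5.39. Between KO and WT, limma called 0 of the 9920 tested genes at an adjusted p under 0.05, or 0% of them, and accordingly 0 of the 5 stem cell genes. At an unadjusted p under 0.05, limma gave 282 genes, or 2.84%, and these held 2 of the 5, Cd34 and Tie1. Because Tie1 was tested only through the group where it was higher, nothing is read from this count.

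**Figure D1:**
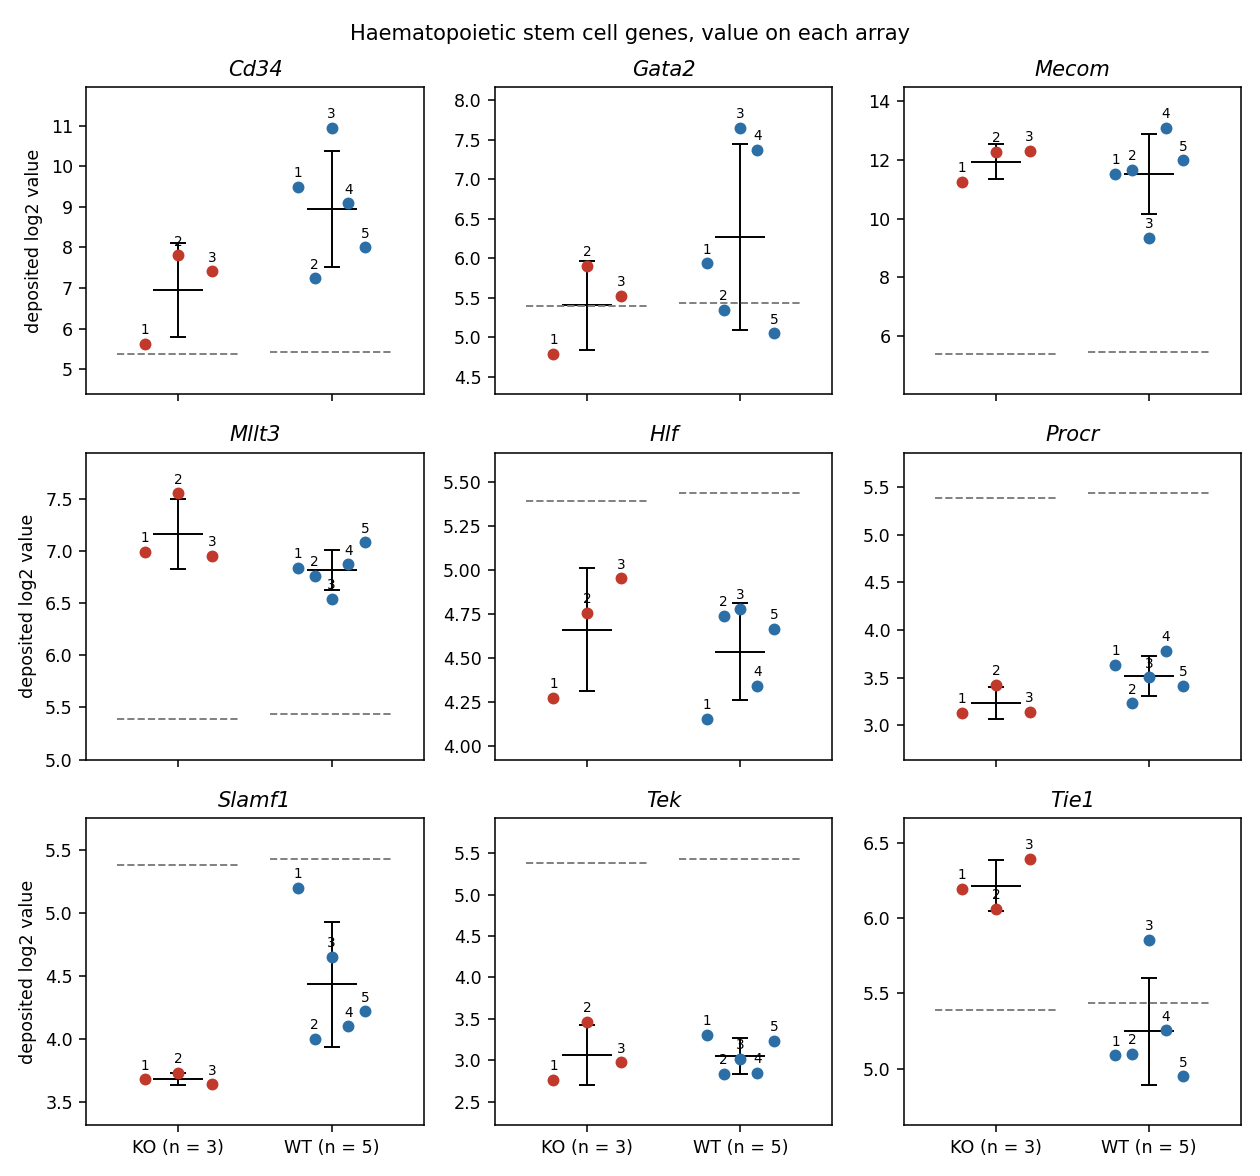
Deposited log2 value (vertical axis, a separate scale in each panel) of the 9 stem cell genes on each of the 3 KO arrays (red) and 5 WT arrays (blue), with the array number beside each point, the group mean and SD as black bars, and the mean of the array medians as a dashed line. Hlf, Procr, Slamf1 and Tek lie under the dashed line on every array, and the KO and WT points do not overlap for Slamf1 and Tie1. Nothing is read from this for Tie1, which was tested only through the group where it was high.

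Because GATA2 is itself 1 of the genes followed, the 250 bases upstream of the start of each gene were read for GATA, ETS and E-box letters (RefSeq, build GRCm38.p6). The windows of 3 genes are shown, Cd34 and Tie1 because they had the smallest unadjusted p among the tested genes of the set, and Mecom because it was bright on every array. This choice is for display only. Capitals mark the matched letters, and each sequence runs 5′ to 3′ on the strand of the gene. The Cd34 window is on the plus strand at chr1:194938571-194938820, the Mecom window shown on the minus strand at chr3:30509760-30510009 and the Tie1 window on the minus strand at chr4:118489850-118490099.
Cd34: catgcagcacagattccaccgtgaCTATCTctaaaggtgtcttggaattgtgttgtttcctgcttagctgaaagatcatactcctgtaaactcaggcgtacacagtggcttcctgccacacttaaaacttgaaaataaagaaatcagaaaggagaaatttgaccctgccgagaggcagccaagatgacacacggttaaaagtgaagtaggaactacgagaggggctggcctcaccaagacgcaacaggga
Mecom: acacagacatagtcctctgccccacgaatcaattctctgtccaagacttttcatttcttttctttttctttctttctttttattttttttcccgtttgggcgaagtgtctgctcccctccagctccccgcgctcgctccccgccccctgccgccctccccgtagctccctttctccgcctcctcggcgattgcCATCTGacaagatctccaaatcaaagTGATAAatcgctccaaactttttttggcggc
Tie1: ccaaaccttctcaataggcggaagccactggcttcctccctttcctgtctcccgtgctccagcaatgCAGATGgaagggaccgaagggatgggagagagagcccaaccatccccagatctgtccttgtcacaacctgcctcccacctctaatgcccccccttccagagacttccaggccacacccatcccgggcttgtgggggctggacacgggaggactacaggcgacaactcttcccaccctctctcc
The Cd34 window holds CTATCT, the reverse complement of AGATAG, at position -226 relative to the start. Mecom has 2 windows in RefSeq, and the one shown is the first listed. It holds TGATAA at -31 and CATCTG at -57, the other Mecom window, at chr3:30013205-30013454, holds AGATAG at -27, and the Tie1 window holds CAGATG at -183. Each motif was searched on both strands. For GATA, the letters AGATAA occur in 9.99% of all windows of this length, the letters TGATAA in 7.94% of them, the letters AGATAG in 7.71% and the letters TGATAG in 6.35%. For ETS the letters were CCGGAA, and for the E-box they were CAGCTG, found in 13.0% of windows, and CATCTG, found in 14.4%. A GATA match was present in 5 of the 12 windows of the 9 genes and in 26.5% of all 32851 windows of the same length, an E-box match in 5 of 12 and in 25.5%, and the ETS letters in 1 of 12 and in 12.0%. No matches overlapped. Such matches describe letters in these windows only.

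Cd34 had the largest difference of the 5 tested stem cell genes. It read 5.63, 7.81 and 7.42 in KO arrays 1 to 3, against 9.49, 7.24, 10.9, 9.08 and 8.01 in WT arrays 1 to 5. The groups overlapped, since WT array 2 lay below KO arrays 2 and 3, and both extremes of the 8 arrays, KO array 1 and WT array 3, lay at opposite ends of a range of 5.32. The mean was 6.95 ± 1.16 (SD, n = 3) in KO arrays, against 8.95 ± 1.42 (SD, n = 5) in WT arrays, a difference of -2.0 with a standard error of 0.82 and a 95% interval from -3.85 to -0.15. It did not pass the test, with a limma adjusted p of 0.998 (unadjusted 0.0368), and the exact two-sided permutation p over 56 splits was 0.0893. Without WT array 3 the difference was -1.50, with an adjusted p of 0.989 in limma. Without KO array 1 it was -1.34, the smallest difference on leaving out any single array. Cd34 was brighter than 56.2% of the negative control rows in KO array 1, and than at least 75.5% of them in every other array. The spread of Cd34 among WT arrays was wide, since its SD there exceeded that of 97.3% of the tested genes, whose median SD was 0.45.

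Gata2, a zinc finger factor of stem cells and of the mast cell lineage, was 4.79, 5.90 and 5.52 in KO arrays and 5.94, 5.34, 7.65, 7.37 and 5.05 in WT arrays. WT arrays 3 and 4 were high and the other 6 arrays lay close to the array median, so the groups overlapped. Gata2 was brighter than 39.4% to 71.8% of the negative control rows in KO arrays and than 42.5% to 82.4% of them in WT arrays. The difference was -0.87 (standard error 0.63, 95% interval -2.29 to 0.56), with a limma adjusted p of 0.998 and an exact permutation p of 0.286. It was -0.52 without WT array 3 and -0.56 without KO array 1. The SD among WT arrays, 1.18, exceeded that of 94.2% of the tested genes.

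Mecom, whose product EVI1 is a transcriptional regulator of stem cell self-renewal, was 11.3, 12.3 and 12.3 in KO arrays and 11.5, 11.7, 9.35, 13.1 and 12.0 in WT arrays. All KO values fell within the WT range, and WT array 3 held the lowest value. The difference was 0.42 with a standard error of 0.72 and a 95% interval from -1.20 to 2.04, and the exact permutation p was 0.696. It was -0.12 without WT array 3, 0.82 without WT array 4 and 0.24 without KO array 3, so that no direction can be given.

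Mllt3, a reader of acetylated histones in the elongation machinery, varied least among WT arrays of the tested genes in this set, with an SD among WT arrays above that of 10.8% of the tested genes. It was 6.99, 7.55 and 6.95 in KO arrays and 6.84, 6.76, 6.54, 6.87 and 7.08 in WT arrays. Only WT array 5 lay within the KO range, and KO array 2 was the highest of the 8. The difference was 0.35 (standard error 0.22, 95% interval -0.16 to 0.85), the limma adjusted p was 0.998 and the exact permutation p was 0.107. Without KO array 2 it was 0.15, and without WT array 3 it was 0.28. Whether the probes of this row also read the AF9 part of the fusion transcript was not tested.

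Tie1, a receptor gene closely related to Tek and found on endothelium and some stem cells, was the 1 tested gene of the set whose KO and WT values did not overlap. It read 6.19, 6.06 and 6.39 in KO arrays, against 5.09, 5.10, 5.85, 5.25 and 4.95 in WT arrays. KO arrays were all higher, WT array 3 came nearest to them, and the other 4 WT arrays lay below the array median. The mean was 6.22 ± 0.17 (SD, n = 3) in KO arrays, against 5.25 ± 0.36 (SD, n = 5) in WT arrays, a difference of 0.97 with a standard error of 0.25 and a 95% interval from 0.41 to 1.52. The limma adjusted p was 0.998 (unadjusted 0.0035), and the exact permutation test reached 0.0179, the lowest p possible with 56 splits. All KO arrays lay above all WT arrays for 157 of the tested genes, or 1.58%. Because Tie1 was tested only through the group where it was high, nothing is read from its interval, p-values or lack of overlap. Without WT array 3 the difference was 1.12 and the limma adjusted p was 0.465. Tie1 was dim throughout, brighter than 66.3% to 74.4% of the 5222 negative control rows in KO arrays and than 40.7% to 59.2% of them in WT arrays.

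**Figure D2:**
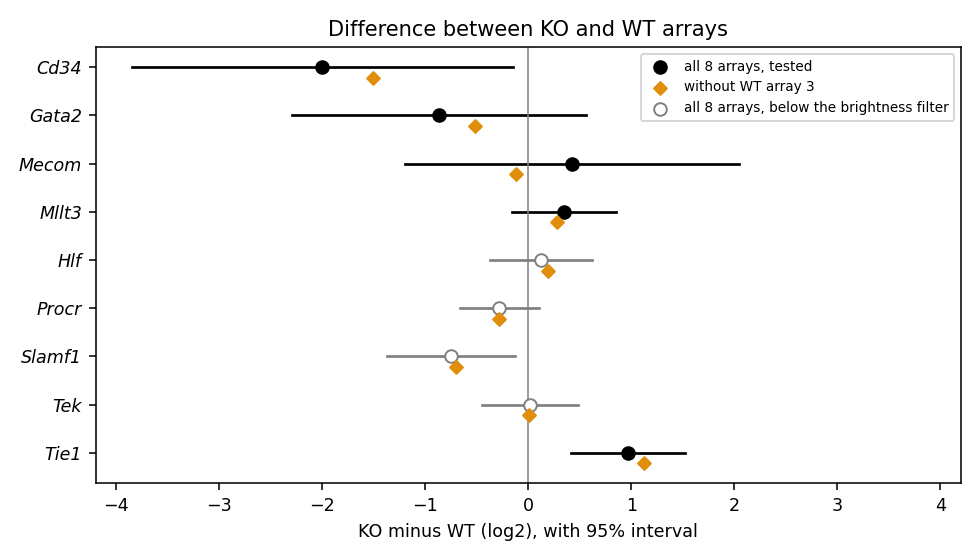
Difference between KO and WT arrays (KO minus WT, log2, horizontal axis) for the 9 stem cell genes, with limma's 95% interval over all 8 arrays as a line, tested genes as filled circles, genes below the brightness filter as open circles and the difference without WT array 3 as diamonds. The intervals of 6 genes cross 0, and those of Cd34 (-3.85 to -0.15), Slamf1 (-1.37 to -0.13) and Tie1 (0.41 to 1.52) do not. No gene passed after adjustment. Tie1 was tested only through the group where it was high, so nothing is read from its interval. The level of Slamf1 lay within that of the negative control rows.

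The 4 genes below the array median were read without a filter, where limma called 0 of 19505 genes and each of the 4 had an adjusted p of 0.999. Slamf1, the CD150 receptor that separates stem cells from committed progenitors, was 3.68, 3.73 and 3.64 in KO arrays and 5.20, 4.002, 4.66, 4.10 and 4.22 in WT arrays. KO arrays were all lower and nearly level with each other, and WT array 1 was the highest. The difference was -0.75 (limma standard error 0.27, unadjusted p 0.0227), with an exact permutation p of 0.0536, and it was -0.70 without WT array 3 and -0.56 without WT array 1. KO arrays lay below all WT arrays for 142 of the 9585 genes under the filter, or 1.48%, and above all WT arrays for 1.64%. Slamf1 was brighter than 14.7% to 51.5% of the negative control rows, so its level lay within theirs.

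Procr, the endothelial protein C receptor, was 3.13, 3.43 and 3.14 in KO arrays and 3.64, 3.23, 3.50, 3.78 and 3.42 in WT arrays. The groups overlapped, with a difference of -0.28 and a 95% interval from -0.66 to 0.10. Hlf differed by 0.12 (95% interval -0.37 to 0.62) and Tek by 0.016 (95% interval -0.45 to 0.48). Tek, the angiopoietin receptor, was between 2.76 and 3.46 in KO arrays and between 2.84 and 3.31 in WT arrays, brighter than 2.59% to 16.0% of the negative control rows.

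The genes whose values ran closest to those of Cd34 over the 8 arrays, after each gene was centred on its own mean, were Adgrg1, Bex3, Tmsb10, Cbfa2t3 and Mfhas1. The root mean square difference from Cd34 was 0.51 log2 units for Adgrg1, an adhesion G protein-coupled receptor gene, and between 0.58 and 0.73 for the other 4, against a median of 1.58 over the tested genes. Adgrg1 was 5.31, 7.10 and 6.41 in KO arrays and 8.64, 6.70, 9.93, 6.996 and 6.64 in WT arrays. All 5 were, like Cd34, highest in WT array 3 and lowest in KO array 1, which follows in part from how they were chosen. The measure also depends on how much a gene varies, so a rank does not describe the pattern alone. Leaving out WT array 3 moved Adgrg1 to rank 4 and Mfhas1 to rank 51. Gata2 ranked 16 of 9919, with 0.86, while Mllt3, Tie1 and Mecom ranked 6067, 7212 and 9349.

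**Figure D3:**
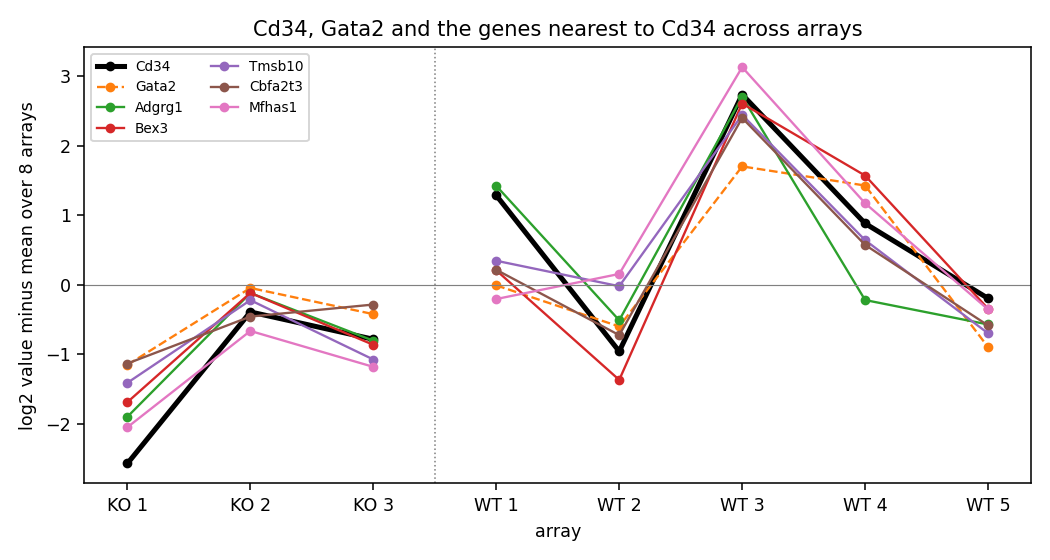
Log2 value minus the gene's mean over the 8 arrays (vertical axis) of Cd34 (thick black), Gata2 (dashed) and the 5 genes with the smallest root mean square difference from Cd34, for the 3 KO arrays left of the dotted line and the 5 WT arrays right of it. Lines only join the values of a gene. All 7 genes peak in WT array 3, and Cd34 is lowest in KO array 1, at 5.63.

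Genes that work with these stem cell genes were read from 19 lists of 152 further symbols, of which 133 had a row and 72 were tested. Of the 72, limma called 0 in either direction, 34 were above 0 and 38 below, and the median difference was -0.039, beside 0.041 over all 9920 tested genes. The stem cell set itself had a median of 0.35 over its 5 tested genes, 3 above and 2 below 0. None of the values that follow passed the test.

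Among transcription factors, the heptad that acts jointly in stem cells (Erg, Fli1, Gata2, Lmo2, Lyl1, Runx1 and Tal1) had 6 of 7 genes tested, 4 above and 2 below 0, with a median of 0.067. Fli1, an ETS factor, was 14.7 ± 0.11 (SD, n = 3) in KO arrays, against 14.3 ± 0.73 (SD, n = 5) in WT arrays, a difference of 0.37, and of 0.051 without WT array 3. Erg, a related ETS factor, differed by 0.060, and by -0.24 without WT array 3. Runx1, the core binding factor subunit, differed by -0.28 with overlapping groups, and its exact permutation p over all arrays was 0.5. Without WT array 3, which was low for this gene, Runx1 differed by -0.54. The exact permutation p was then 0.0286, the lowest possible with 35 splits, and the limma adjusted p was 0.989. Lmo2 differed by 0.18 and Lyl1 by 0.074, while Tal1 was below the median on every array. Among other stem cell factors, 7 of 13 were tested with a median of 0.035, from -0.23 to 0.31 for Zfp36l2, an RNA-binding protein gene that was at 0.15 without KO array 3 and at 0.17 without WT array 3. Meis1, the HOX cofactor of MLL leukaemia, was 13.6 ± 0.17 (SD, n = 3) in KO arrays, against 13.6 ± 0.52 (SD, n = 5) in WT arrays. Of 5 GATA factors and cofactors 2 were tested, with Gata1 at 0.081, and of 5 Mecom cofactors and relatives 3 were tested, with a median of 0.017 and Ehmt2, a histone methyltransferase gene, at 0.44, and at -0.070 without WT array 3.

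The relatives and partners of Mllt3 in transcript elongation were all bright, and all 8 with a row were tested, 4 above and 4 below 0, with a median of 0.020. KO and WT values did not overlap for 2 of them, both lower in KO, where 1.51% of all tested genes were so. Aff1, the AF4 gene of the super elongation complex, was 15.4, 15.1 and 15.3 in KO arrays and between 15.5 and 15.6 in WT arrays, a difference of -0.28 with a limma adjusted p of 0.998 and an exact permutation p of 0.0179. Mllt1, which encodes ENL, the paralogue of AF9, was 11.1 ± 0.063 (SD, n = 3) in KO arrays, against 11.5 ± 0.35 (SD, n = 5) in WT arrays, a difference of -0.37. Without WT array 3 it was -0.22. Dot1l, the histone H3 lysine methyltransferase recruited by MLL fusions, differed by 0.61, by 0.25 without WT array 3 and by 0.40 without KO array 1. Of the PAR bZIP factors related to Hlf, 2 of 3 were tested, 1 above and 1 below 0. Dbp, a circadian factor, was at -0.95, at -0.56 without WT array 3 and at -0.57 without KO array 3. The other was at 0.43, and its KO arrays lay above all WT arrays, as for 1.58% of all tested genes.

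Among surface genes, 5 of 16 further stem and multipotent progenitor genes were tested, 3 above and 2 below 0, with a median of 0.16. Kit, the stem cell factor receptor, had the largest difference of these, -0.30, with 15.9 ± 0.18 (SD, n = 3) in KO arrays, against 16.2 ± 0.17 (SD, n = 5) in WT arrays. Vwf, the von Willebrand factor gene, differed by -0.098, and by 0.11 without WT array 1. Flt3, the receptor of multipotent progenitors, and Fgd5, a stem cell reporter gene, were below the median on every array. In the SLAM family and its adaptors, which include the partners of Slamf1, 5 of 12 names were tested, 1 above and 4 below 0, with a median of -0.28. Cd48, a SLAM gene of committed progenitors, differed by -0.17, and by 0.39 without KO array 1. Sh2d1b1, which encodes the SLAM adaptor EAT-2, was 8.29, 8.98 and 11.7 in KO arrays and between 10.9 and 11.7 in WT arrays, a difference of -1.71, against -2.74 without KO array 3 and -1.02 without KO array 1.

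In the Ly6 family, to which the unmatched Ly6a belongs, 4 of 8 were tested, all 4 below 0, with a median of -0.26. Ly6k was 4.60, 4.36 and 4.81 in KO arrays and 4.99, 5.79, 9.01, 8.26 and 5.48 in WT arrays, a difference of -2.12. It lay above the array median on 0 KO arrays and 4 WT arrays, so it was tested only through the group where it was high, and nothing is read from the lack of overlap. WT arrays 3 and 4 were high, as they were for Gata2, and without WT array 3 the difference was -1.54. Members of this family are similar in sequence, and signal shared between them was not tested. The angiopoietins and partners of the Tie receptors had 1 of 5 tested, Angpt2, at -0.19, and the ligand and receptors around Procr had 2 of 6, at a median of -0.32, with F2rl2 at -0.39 and at 0.16 without WT array 1. F2r, the thrombin receptor gene, was below the median on every array. Of 4 listed relatives and partners of Cd34, 1 was tested, the adaptor gene Crkl at 0.095, so no relative was tested. Podxl, the related sialomucin gene, was above the median on 1 array. Of 8 quiescence genes 5 were tested, 4 above 0, with a median of 0.25 and Btg2, an antiproliferative gene, at 0.32, and at -0.20 without KO array 2. Cdkn1c, the p57 inhibitor gene of quiescent stem cells, was below the median on every array.

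**Figure D4:**
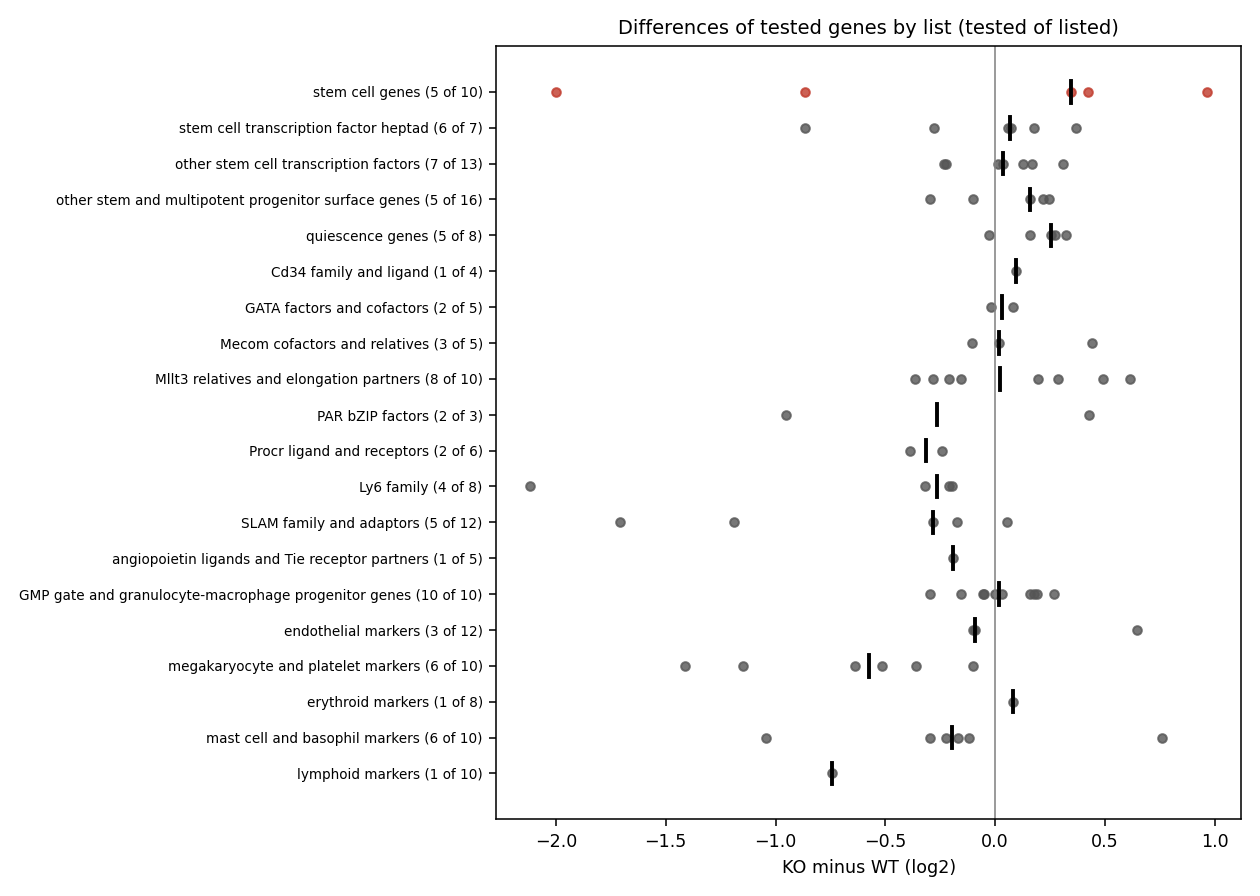
Difference between KO and WT arrays (KO minus WT, log2, horizontal axis) of each tested gene (points) in the stem cell set (red) and in the 19 related lists (grey), with the median of each list as a black bar and the number tested of the number listed in brackets. The farthest points are Ly6k at -2.12, Cd34 at -2.0 and Sh2d1b1 at -1.71.

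Several of these genes are also expressed outside stem cells, so markers of other cells that a sort could hold were read beside them. In bulk samples, fewer cells of a type and less RNA per cell cannot be told apart. Of 11 endothelial marker rows, 8 were below the array median on every array, including the defining genes Cdh5 and Kdr, and 3 were tested, with a median of -0.090, the value of Pecam1, and Flt1 at 0.65, and at 0.29 without KO array 1. Their mean log2 level was 4.71 to 4.92 in KO arrays and 4.65 to 4.87 in WT arrays, and their part in the Tie1 difference was not tested. Of 10 mast cell and basophil markers 6 were tested, 1 above and 5 below 0, with a median of -0.20. The mast cell protease gene Cpa3, the lowest of the 6, differed by -1.04, and by -0.69 without KO array 3. The 1 marker above 0 was at 0.76. The mean log2 level of the list was 6.55 to 6.86 in KO arrays and 6.67 to 6.96 in WT arrays. Megakaryocyte and platelet markers, 8 rows of 10 names and 6 tested, were all below 0, with a median of -0.58. Their mean log2 level was 5.81 to 5.995 in KO arrays and 5.59 to 6.53 in WT arrays other than WT array 1, which reached 9.56. Pf4, a platelet chemokine gene, differed by -1.41, and by -0.22 without WT array 1, and the platelet integrin gene Itga2b by -1.15, and by -0.66 without it. Cd34 and Slamf1 were also high in WT array 1, and their differences without it were -1.87 and -0.56. The part of these markers in the Cd34, Gata2 and Slamf1 values was not tested. Of the erythroid and lymphoid lists 1 gene each was tested, Gata1 at 0.081 and Nkg7 at -0.74, and at -0.42 without KO array 1.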

How the data were processed

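RNA was extracted with a kit for small samples and labelled following a standard Affymetrix procedure, per the labels. The authors deposited 1 table of log2 values for 8 arrays, whose software, background correction, normalization and genome build were not given in the sources used here. Gene symbols came from the platform annotation, which seems to describe a different Affymetrix mouse array from the one the design text names. Each symbol was represented by its brightest row on average. A gene was tested if above the median of all rows on at least 3 arrays. The KO and WT arrays were compared with limma 3.58.1 in R 4.3.3 (two-sided, eBayes after lmFit, Benjamini-Hochberg adjustment, threshold 0.05), and single genes by an exact permutation test over 56 splits. The script was tested on simulated data whose spread was smaller than the median spread among WT arrays here. That test does not measure what the fit could find in these arrays. Groups and replicate numbers came from the sample titles. Same-numbered KO and WT arrays had correlations of 0.018, -0.018 and 0.14 between their deviations, within the -0.12 to 0.14 of arrays with unlike numbers. The numbers were therefore not taken as pairs. The stem cell genes and the related lists were chosen with earlier results of these data known. Beyond the 10 stem cell genes, the text names a fixed set of related genes, the tested gene of each list with the largest difference, and the 5 genes nearest to Cd34. Some genes of that set are not reported here, and protein sequences were not used here. Alternatives are given in the closing section. Figures were drawn with matplotlib 3.10.9.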

Additional observations from a re-analysis of the deposited data

Results flagged for a closer look

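Among the 5 WT arrays, 55 genes named here were searched for 1 array far from the rest. The measure was its gap to the nearest other array divided by the whole WT range, with a limit of 0.71. Above that limit, 7 such values appeared. Part of the 55 genes had been chosen by the size of their difference or by likeness to Cd34, so no chance share is set beside this count. None was a stem cell gene of the set. WT array 3 was the array in 6 of the 7. It was low for Erg at 11.8, against 13.2 to 13.5 in the other WT arrays, for Fli1 at 13.1, against 14.4 to 14.8, and for Runx1 at 11.5, against 12.6 to 13.0. It was also low for Ehmt2 at 8.90, against 11.2 to 11.7, and for Pik3ca at 8.41, against 9.48 to 9.58, and high for Dbp at 10.7, against 8.46 to 8.98. WT array 1 was high for F2rl2 at 8.36, against 5.26 to 5.99.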

How the results depend on the processing

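Under 17 alternatives (no or a stricter filter on dim rows, centring on array medians, quantile normalization, a 25th percentile floor, the row of largest variance, array weights, a trended and robust eBayes, the replicate block, and leaving out each array), limma called 0 genes, and thus 0 stem cell or related genes, with 217 to 592 genes at an unadjusted p under 0.05. The smallest adjusted p of a stem cell gene was 0.417, for Tie1. Above the 60th percentile of the array, 3 rather than 5 stem cell genes remained on at least 3 arrays. The cause of the changes below was not tested. Over the alternatives Cd34 differed by -2.43 to -1.34 and Mllt3 by 0.15 to 0.45, and over those other than the stricter filter, which left out both genes, Gata2 differed by -1.17 to -0.52 and Tie1 by 0.87 to 1.12. Mecom turned to -0.082 with array weights, was 1.10 with the replicate block, and leaving out arrays gave -0.12 to 0.82. With array weights Erg was at -0.17, Lmo2 at -0.043 and Meis1 at -0.14. With the replicate block, which called 0 genes, Cd34 was at -2.27, Cd48 at 0.17, Gata1 at -0.079 and Pecam1 at 0.038. Leaving out each array in turn changed the sign for Erg (-0.24 to 0.32), Lmo2 (-0.026 to 0.44), Lyl1 (-0.051 to 0.14), Meis1 (-0.18 to 0.16), Cd48 (-0.61 to 0.39), Vwf (-0.26 to 0.11), Gata1 (-0.0065 to 0.17), Mpo (-0.11 to 0.019), Pecam1 (-0.31 to 0.18), Btg2 (-0.20 to 0.81), Crkl (-0.050 to 0.19), Ehmt2 (-0.070 to 0.64), F2rl2 (-0.62 to 0.16), Angpt2 (-0.55 to 0.089) and Pik3ca (-0.39 to 0.042).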

Other observations

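Some related genes were bright on single WT arrays. Angpt1, the ligand of TIE2, was 4.0, 4.52 and 5.25 in KO arrays and 4.44, 4.43, 6.25, 7.83 and 4.55 in WT arrays, high in WT arrays 3 and 4, which were also the high arrays for Gata2 and Ly6k. Prdm16, a relative of Mecom, was 4.90, 5.19 and 5.16 in KO arrays and 4.66, 5.49, 4.35, 4.81 and 7.61 in WT arrays, above the array median on WT arrays 2 and 5 only. Neither was bright enough on 3 arrays to be tested.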
